A study of Mus musculus with 45 samples.

Results

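Translation initiation factors are the proteins that bring the small ribosomal subunit, the initiator tRNA and the start codon of an mRNA together. The genes described here are those of the count table whose symbol begins with Eif and a digit from 1 to 6. Symbols of the eIF2 kinases (Eif2ak) and of pseudogene or antisense copies were left out, as were genes with a mean under 1 CPM over all samples, where CPM is the count of a gene scaled to the depth of its library. Of 66 matching symbols, 4 were eIF2 kinases and 10 were pseudogene or antisense copies, and 3 of the remaining 52 were below the threshold, which left 49 genes. The 3 genes below it were Eif4ebp3, at a mean of 0.387 CPM, Eif4e1b, at 0.002168 CPM, and Eif2c5, at 0 CPM, which by its symbol belongs to the Argonaute family. The least abundant gene above it was Eif5a2, at 13.1 CPM. The 49 genes lie on 18 chromosomes, with 2 on the X, 1 on the Y and 1 on chromosome 10, which also carries S1pr4. By complex they comprise 5 genes of eIF1 and eIF1A, 4 of eIF2, 2 that bring initiator tRNA without eIF2, 5 of eIF2B, 14 of eIF3, 5 of the eIF4A helicases and their helpers, 3 cap-binding eIF4E proteins, 3 eIF4E-binding proteins, 3 of eIF4G, and 5 of eIF5, eIF5A, eIF5B and eIF6. Some carry the name without acting mainly at initiation: Eif4a3 is a helicase of the exon junction complex, Eif5a helps elongation, Eif6 binds the large ribosomal subunit, and Eif4enif1 carries eIF4E into the nucleus.

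Initiation begins when eIF2 loads the initiator tRNA onto the small subunit, which eIF1, eIF1A and eIF3 hold open for scanning. The cap-binding protein eIF4E, the scaffold eIF4G and the helicase eIF4A bring the mRNA to it, and eIF5 and eIF5B then release eIF2 and join the large subunit. Cells tune the process at a pair of points, the phosphorylation of eIF2, which blocks its recycling by eIF2B, and the eIF4E-binding proteins, which mTORC1 holds inactive. Lymphocytes that enter a germinal centre grow and divide fast, and activated lymphocytes are known to raise protein synthesis.

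RNA was sequenced from lymphocytes sorted out of the draining popliteal lymph node of WT mice and of mice lacking sphingosine-1-phosphate receptor 4 (S1PR4-/-), to see how the loss of this receptor alters cells of the germinal centre (GC) response. The S1PR4-/- mice were of the B6.129P2-S1pr4tm1Dgen/J strain, bred onto C57BL/6 for at least 10 generations, and WT littermates served as controls. Males and females of 8 to 12 weeks of age were used. All mice, of both genotypes, had been injected in the hind footpad with 20 µl of an IFA emulsion that held 50 µg OVA and 5 µg LPS, so no group was left without immunization. Follicular helper T cells (TFH; TCRb+ CD4+ PD1+ CXCR5+) and non-TFH cells (PD1- CXCR5-) were taken on day 6. GC B cells (B220+ GL7+ Fas+) and non-GC B cells (GL7- Fas-) were taken on day 9, so lineage and day cannot be told apart. Each of the 8 groups held 6 samples, except non-GC B cells with 5 WT and 4 S1PR4-/- samples, 45 in all. The authors give 6 WT and 6 S1PR4-/- mice for the sorts and do not say whether this holds for each day. Nodes were collected after euthanasia, so the cells of day 6 and those of day 9 came from different mice. Nothing in the labels ties a sample to an animal, so p-values measure the spread between these samples, which may in part be technical.

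The targeted gene followed the labels in all samples. S1pr4 expected counts were 1811 to 3170 in WT TFH cells against 10 to 40 in S1PR4-/- TFH cells, and 4352 to 6305 against 18 to 32 in non-TFH cells. In GC B cells they were 505 to 1205 in WT against 0 to 4 in S1PR4-/- samples, and in non-GC B cells 2726 to 3098 against 1 to 6. Library depth, in summed counts, was 26299429 to 45548215 (median 34188292). Markers of the sorted populations also followed the labels. In WT mice, 7 of 7 GC B cell markers were higher in GC B than in non-GC B cells (median log2 fold change 7.47), 6 of 6 TFH markers were higher in TFH than in non-TFH cells (6.37), and 8 of 8 proliferation genes were higher in both (5.95 and 4.28). All 5 markers of resting B cells were lower in GC B cells and all 5 of resting T cells were lower in TFH cells. Ddx3y, a gene of the Y chromosome, had at least 100 counts in 20 of the 45 samples, and these were spread unevenly: 1 of 6 WT and 4 of 6 S1PR4-/- samples in both T cell populations, 3 of 6 in both GC B groups, and 2 of 5 WT and 2 of 4 S1PR4-/- non-GC B samples.

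A pair of libraries stood apart. In non-GC B S1PR4-/- replicate 1 the correlation with the mean of its group over log2 CPM of all genes was 0.965, the lowest of 45 (median 0.987), and it had the fewest genes with at least 10 counts, 12281. GC B S1PR4-/- replicate 3 held 17638 CPM on 6 plasma cell markers, where its group had a median of 4002 CPM. Counts of calls for S1PR4-/- GC B against non-GC B cells, for the comparisons of genotypes in B cells and for their interaction are given with and without these libraries, and levels and fold changes with both unless stated. GC B WT replicate 6 held more resting B cell marker RNA than the rest of its group, 3156 CPM over 5 genes where the median was 1527 CPM, and had the lowest share of counts on the 49 genes and the lowest Eif2s1, Eif1ax, Eif5a and Eif2a of its group. Without it 43 of the 49 genes were called in WT GC B against non-GC B cells, 28 of them past 1.5-fold, where all libraries gave 39 and 24. The part of resting B cells in its levels was not tested. Non-GC B WT replicate 2 had 22790 genes with a count, the most of 45, where no other library had more than 18708. Without that replicate Eif5a2 was called in WT GC B against non-GC B cells, as given below. Non-TFH S1PR4-/- replicate 1 held the most TFH marker RNA of its group, 157 CPM over 6 genes where the median was 77.3 CPM, and the most proliferation gene RNA, 472 CPM where the median was 245 CPM. Without it 35 genes were called in S1PR4-/- TFH against non-TFH cells, 11 of them past 1.5-fold, where all libraries gave 35 and 9, and 0 were called between genotypes in non-TFH cells with or without it.

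Per kilobase of exon, the scale on which genes can be set side by side, Eif5a was the most abundant of the 49 over all samples at 411 CPM per kb, ahead of Eif1 at 364, the gatekeeper of start codon choice, and the helicase Eif4a1 at 344. The scaffold Eif4g2 followed at 218 CPM per kb and Eif4a3 at 186. Last were Eif4ebp2, a repressor that binds eIF4E, at 5.98 CPM per kb, and Eif5a2, a second copy of eIF5A, at 2.61. The order at the top differed between populations. Eif5a led in WT TFH and GC B cells at 444 ± 46.6 and 543 ± 67.1 CPM per kb (SD, n = 6). Eif1 led in WT non-TFH and non-GC B cells at 423 ± 52.4 (SD, n = 6) and 417 ± 22.8 CPM per kb (SD, n = 5). The heatmap of levels by sample shows each gene against its own mean. GC B samples of both genotypes form a block of high values across the eIF3 subunits, non-GC B samples a block of low values, and Eif4a2 runs the other way.

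**Figure D1:**
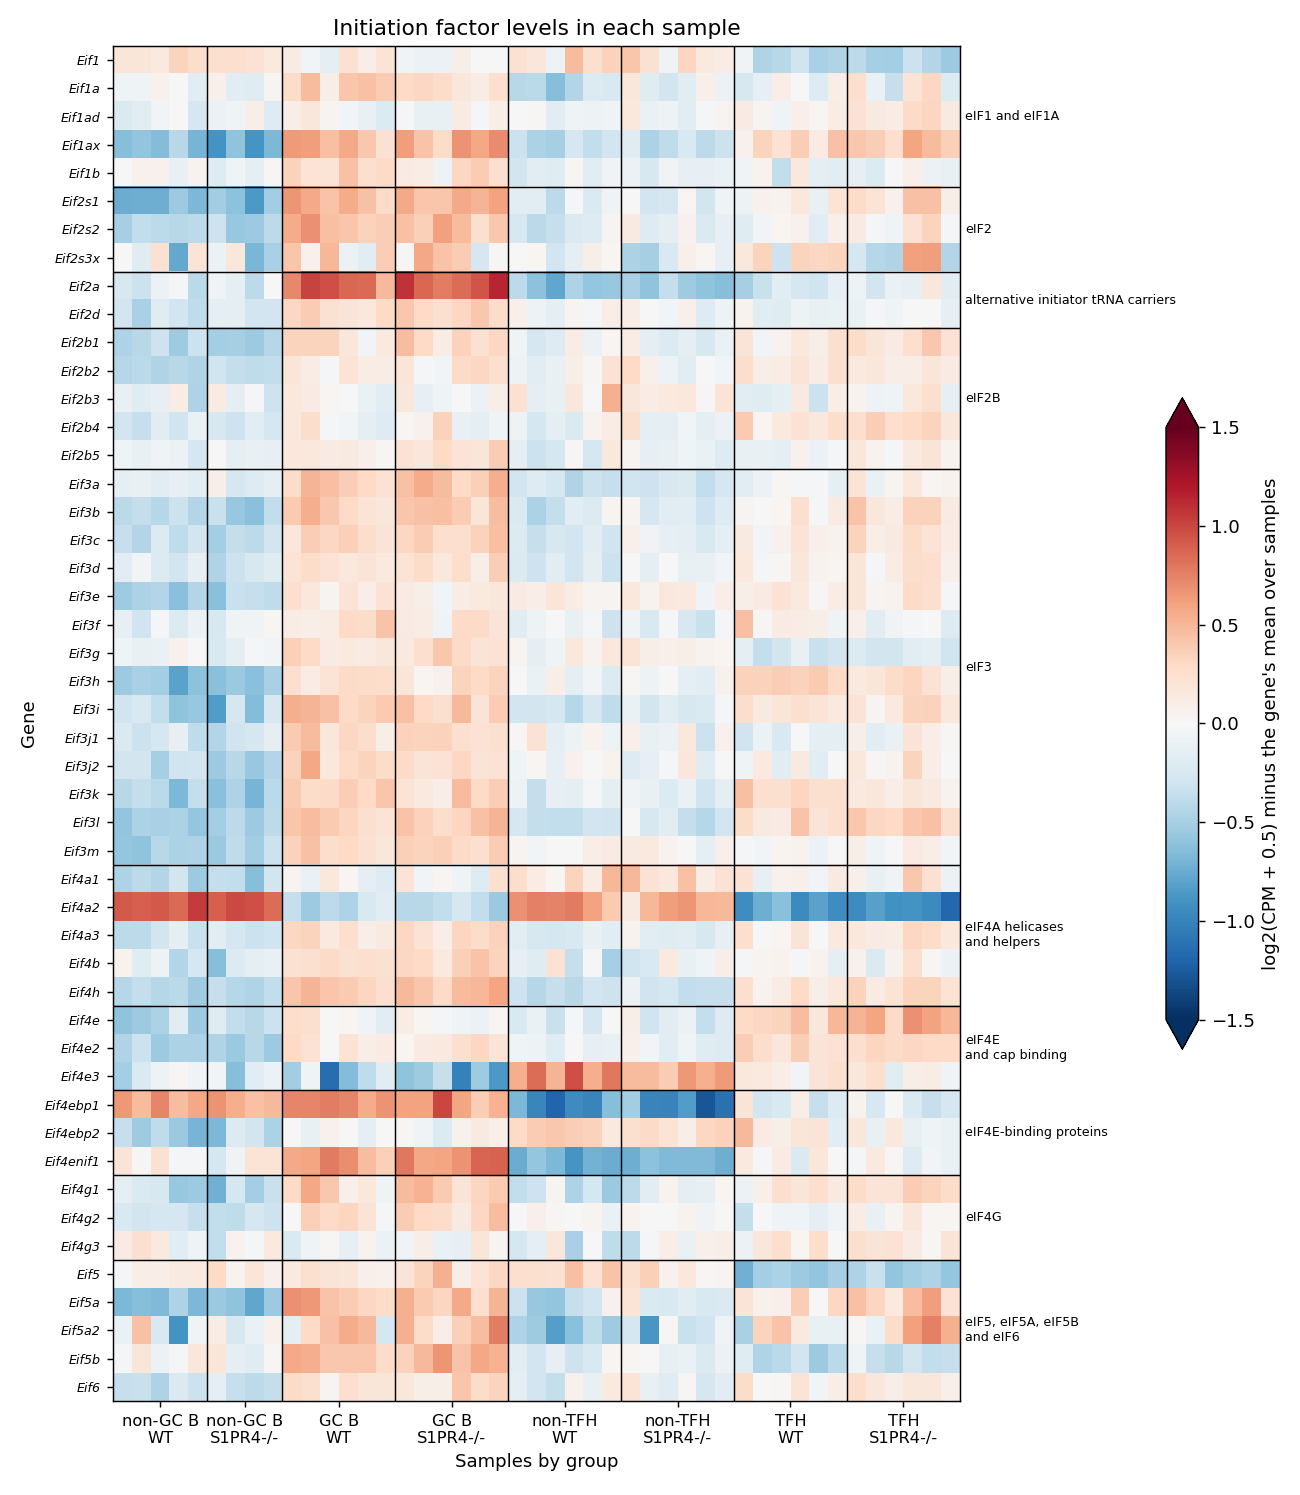
Log2 CPM of 48 of the 49 genes (rows, by complex) in the 45 samples (columns, by group), each gene shown relative to its mean over all samples; Eif2s3y is left out because it is near 0 in samples without a Y chromosome gene signal. The 14 eIF3 genes are mostly above their means in GC B samples and below them in non-GC B samples.

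Together the 49 genes took a larger share of all counts in GC B than in non-GC B cells. The share was 1.07% to 1.24% in WT GC B samples and 0.996% to 1.297% in S1PR4-/- GC B samples, where the lowest value was replicate 3. It was 0.840% to 0.864% in WT non-GC B samples and 0.828% to 0.875% in S1PR4-/- non-GC B samples, so the B cell populations did not overlap. In T cells the shares overlapped between populations: 1.00% to 1.10% in WT TFH cells, 1.05% to 1.19% in S1PR4-/- TFH cells, 1.01% to 1.06% in WT non-TFH cells and 1.00% to 1.11% in S1PR4-/- non-TFH cells. In bulk samples such as these, fewer cells of a type and less RNA per cell cannot be told apart.

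The gamma subunit of eIF2, which holds the initiator tRNA, is encoded by Eif2s3x on the X chromosome and by a second copy, Eif2s3y, on the Y chromosome. In the 20 samples with Ddx3y, Eif2s3y ranged from 65.9 to 116 CPM (median 92.5), and in the 25 samples without it the highest level was 0.782 CPM, from 22 counts. The X copy was lower where the Y copy was present: within each of the 8 groups, every sample with Ddx3y had less Eif2s3x than every sample without it. In WT TFH cells, for instance, the single sample with Ddx3y had 83.5 CPM of Eif2s3x and the 5 others had 116 to 131 CPM. Differences in Eif2s3x between groups therefore carry the uneven spread of Ddx3y across groups described above.

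**Figure D2:**
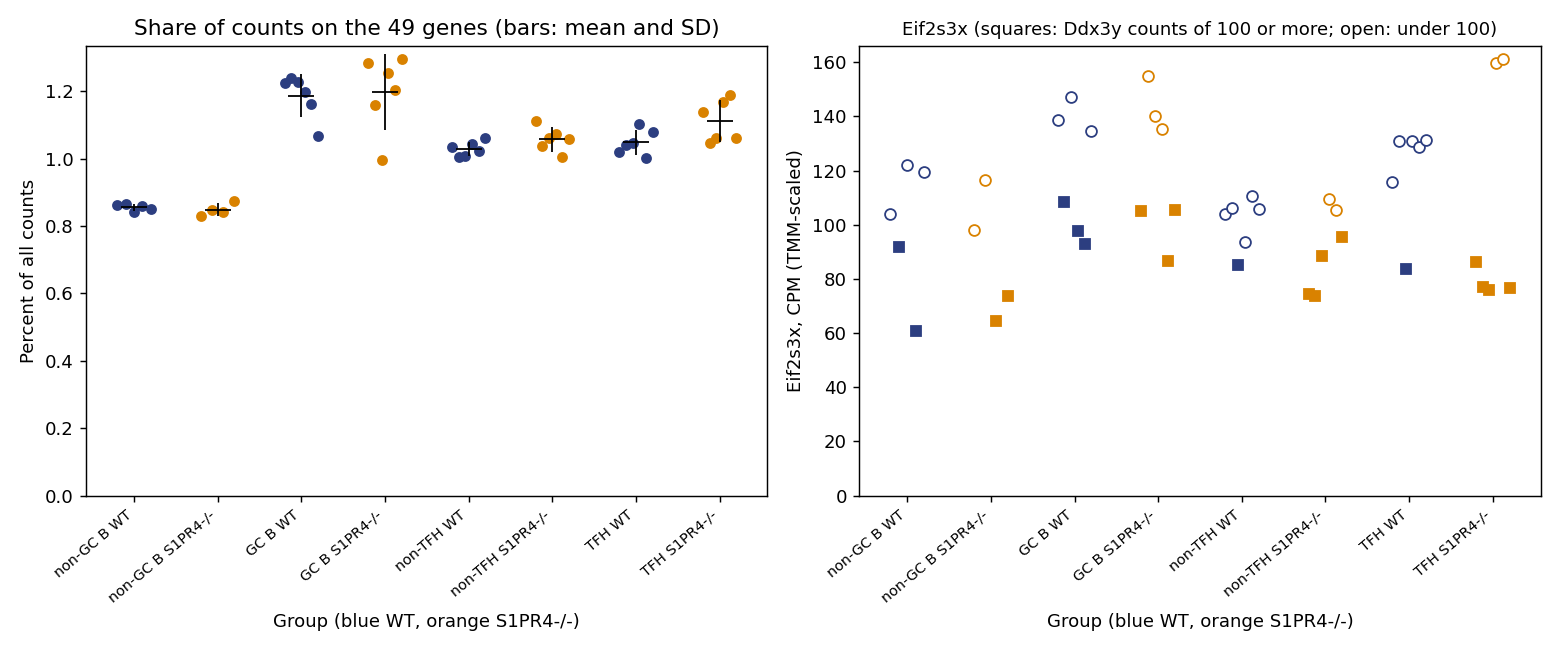
Left, percent of all counts on the 49 genes in each sample by group, with mean and SD; right, Eif2s3x in CPM in each sample, with squares for samples with at least 100 counts of Ddx3y and open circles for the others. GC B samples lie above non-GC B samples on the left, and squares lie below circles within every group on the right.

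GC B cells of WT mice held more mRNA for most initiation factors than non-GC B cells. At an adjusted p under 0.05 (edgeR, adjusted over all genes tested), 38 of the 49 genes were higher (77.6%, against 34.3% of all 13324 genes tested) and 1 was lower (2.04%, against 32.9%). Past a fold of 1.5 as well, 23 were higher and 1 was lower, against 24.8% and 23.1% of all genes. The median log2 fold change was 0.57 over the 49 genes and 0.00 over all genes, and scaling by total counts, which moved the median of all genes to -0.09, left 38 higher and 1 lower, of which 17 were past 1.5-fold. All 14 genes of eIF3, the scaffold that binds the small subunit, were higher, also with total counts, with log2 fold changes from 0.31 to 0.93. So were both genes that bring initiator tRNA without eIF2, 4 of 5 genes of eIF2B, the exchange factor that recharges eIF2, 2 of 4 of eIF2, 3 of 5 of eIF1 and eIF1A, 2 of 3 of each of eIF4E, the eIF4E-binding proteins and eIF4G, and 3 of 5 of the eIF5 group, with the same counts under total counts. The 10 genes not called were Eif1, Eif1ad, Eif2b3, Eif2s3x, Eif2s3y, Eif4e3, Eif4ebp1, Eif4g3, Eif5 and Eif5a2. With Ddx3y as a covariate Eif2s3x was called higher (0.35).

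The largest rise was that of Eif2s1, the alpha subunit of eIF2 and the one that stress kinases phosphorylate (ENSMUSG00000021116.10, chr12:78861819-78887010 in mm10). It was at 254 to 328 CPM (median 293) in WT GC B cells and at 123, 124, 124, 129.7 and 142 CPM in WT non-GC B cells. All 6 GC B samples were above all 5 non-GC B samples (log2 fold change 1.25 ± 0.08, adjusted p = 3.92e-08; errors of log2 fold changes are SE throughout). Eif1ax, the eIF1A gene of the X chromosome, which keeps the ribosome scanning (ENSMUSG00000067194.6, chrX:159372178-159389928), was at 109 to 146 CPM (median 133) against 57.2, 59.3, 59.8, 61.7 and 69.8 CPM. The groups did not overlap (log2 fold change 1.16 ± 0.09, adjusted p = 2.24e-07), and its autosomal relative Eif1a rose less (log2 fold change 0.46 ± 0.08, adjusted p = 1.63e-04). Eif5a, which carries the hypusine residue and keeps ribosomes moving (ENSMUSG00000078812.10, chr11:69916714-69921958), was at 1134 to 1509.6 CPM (median 1238) against 586, 587, 593, 599 and 676 CPM. Again every GC B sample was the higher (log2 fold change 1.15 ± 0.09, adjusted p = 4.06e-07), whereas for its low-level copy Eif5a2 the log2 fold change was 0.45 ± 0.23 and the adjusted p 0.0996. Without GC B replicate 6 or non-GC B replicate 2 Eif5a2 was called, at 0.56 and 0.63. Eif2a, which can bring initiator tRNA to the ribosome without eIF2 (ENSMUSG00000027810.14, chr3:58525821-58557501), was at 58.6 to 84.7 CPM (median 76.1) against 31.5, 33.3, 35.3, 39.4 and 41.5 CPM, with no overlap (log2 fold change 1.11 ± 0.11, adjusted p = 2.57e-06). Its exons overlap those of Serp1 on the opposite strand, whose reads cannot be told apart from its own because the strand setting of the counting is not stated.

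Among the other genes with the largest rises, Eif2s2, the beta subunit of eIF2, was higher by a log2 fold change of 0.96 ± 0.07 and Eif2b1, the alpha subunit of eIF2B, by 0.70 ± 0.09. Eif4h, which stimulates the helicase eIF4A, was higher by 0.88 ± 0.07. Of the eIF3 subunits, Eif3l rose by 0.93 ± 0.07, Eif3i by 0.90 ± 0.08, Eif3h by 0.89 ± 0.07, Eif3m by 0.86 ± 0.07, Eif3k by 0.85 ± 0.07, Eif3b by 0.80 ± 0.08 and Eif3e by 0.73 ± 0.06. Each of these 10 genes had an adjusted p of at most 1.22e-05. Eif3j2 and Eif3j1, which encode the loosely bound eIF3j, rose by 0.73 ± 0.09 and 0.62 ± 0.09. Of the 31-base words of Eif3j2, 94% are also in Eif3j1, so how reads were split between them is uncertain. Shared sequence also bears on Eif3m (51.4% of words, with a processed copy), Eif3e (42.0%), Eif3h (37.4%) and Eif2s2 (25.6%).

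Eif4a2 was the 1 gene that fell. It encodes a close relative of the helicase Eif4a1 (ENSMUSG00000022884.15, chr16:23107444-23114136), and the 2 genes share no 31-base word. Eif4a2 was at 88.2 to 115 CPM (median 99.7) in WT GC B cells and at 233, 240.0, 244, 245 and 268 CPM in non-GC B cells. Every GC B sample was below every non-GC B sample, a fall of 2.33-fold (log2 fold change -1.22 ± 0.07, adjusted p = 3.33e-08). Eif4a1 (ENSMUSG00000059796.16, chr11:69666936-69672423) moved the opposite way, from 412, 435, 442, 456 and 497 CPM in non-GC B cells to 525 to 667 CPM (median 585) in GC B cells, without overlap (log2 fold change 0.46 ± 0.08, adjusted p = 2.31e-04). Of the words of Eif4a1, 66.3% also occur in the copy Eif4a-ps4, and an exon of Eif4a2 overlaps Rfc4 on the opposite strand, so both levels carry that uncertainty. The plot of 12 genes by group shows Eif4a1 higher and Eif4a2 lower in GC B than in non-GC B cells.

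**Figure D3:**
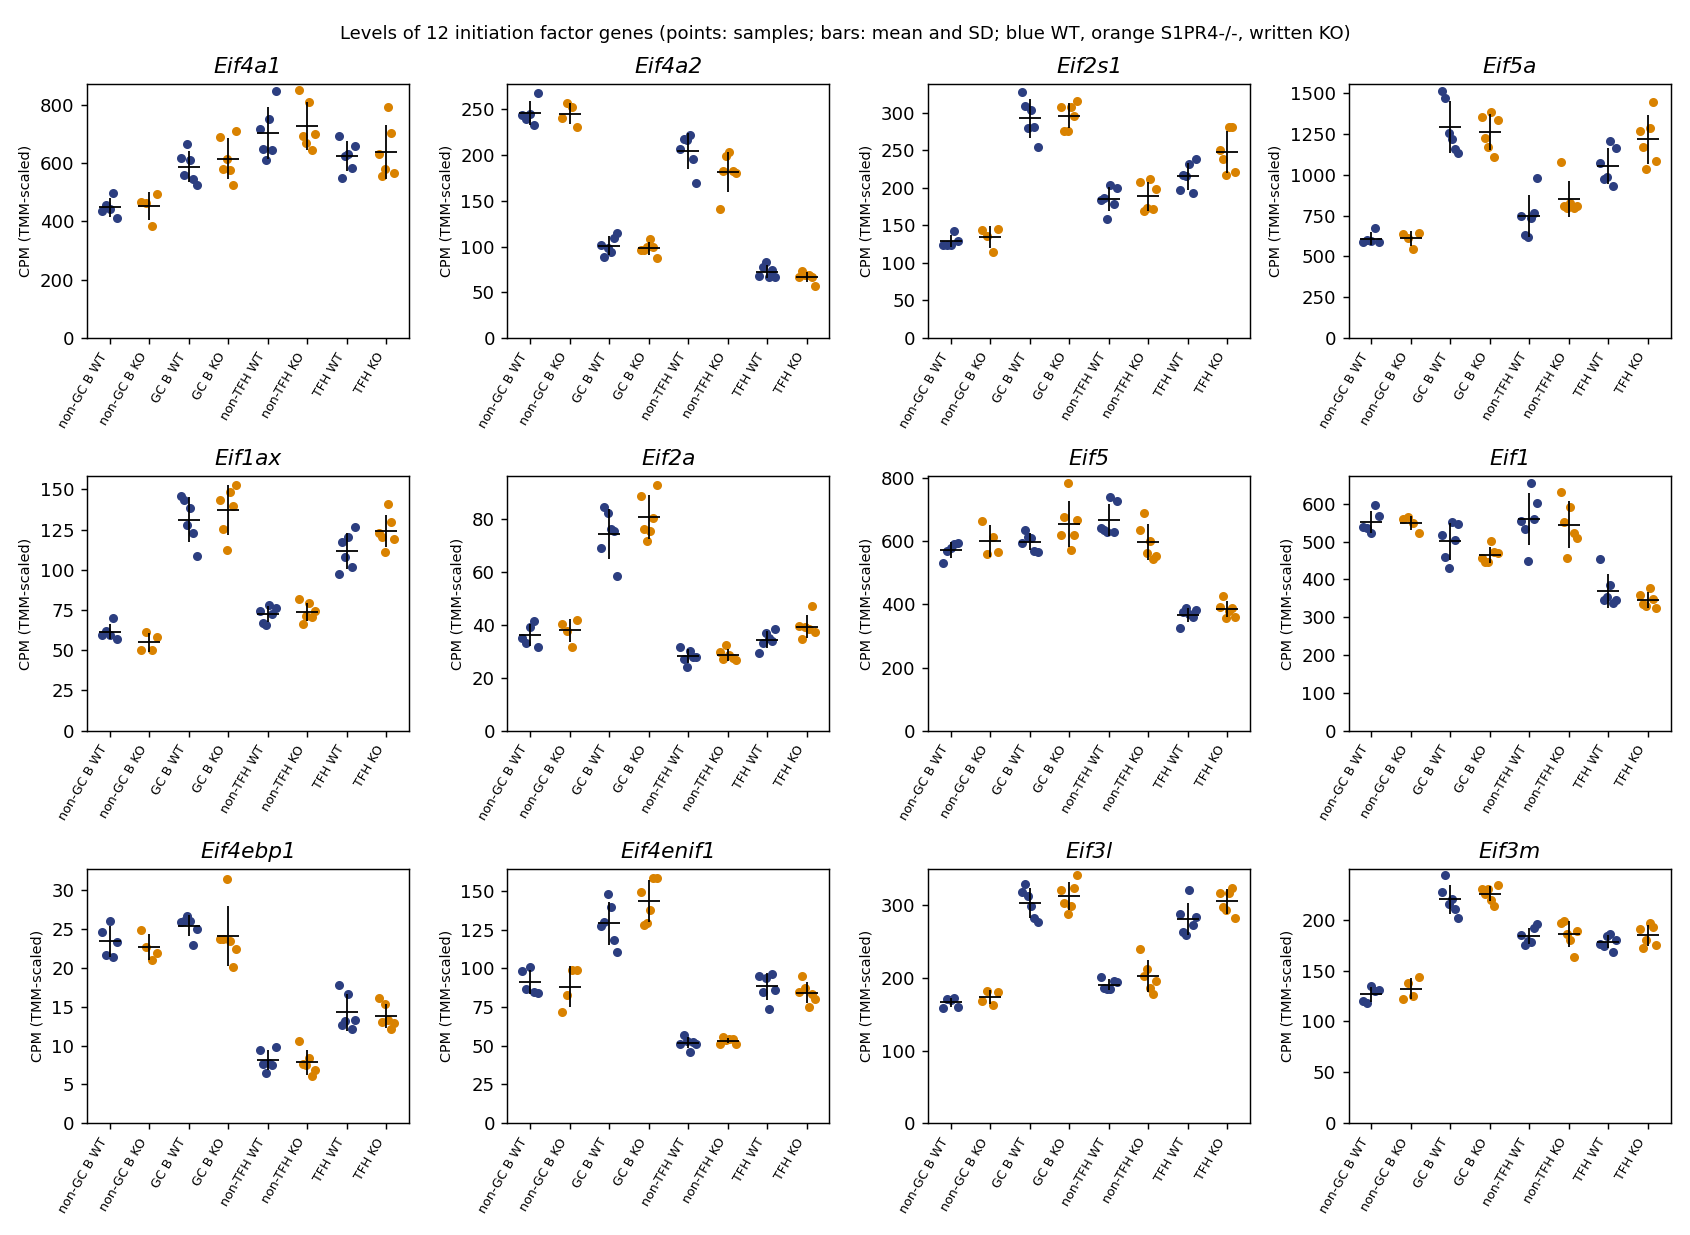
CPM of 12 initiation factor genes in each of the 45 samples by group (KO, S1PR4-/-), with mean and SD as bars. Eif4a2 is lower in GC B than in non-GC B and lower in TFH than in non-TFH samples, while Eif2s1, Eif5a and Eif1ax are higher in GC B than in non-GC B samples.

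Start regions were looked up for the 49 genes in RefSeq (GRCm38.p6), from 250 bases before to 50 bases after the start, and 39 genes matched by symbol. The letters CACGTG are an E-box that MYC and other factors bind, and they read the same on both strands. Some genes had several regions, and a gene counted where any of them matched. So counted, 10 of the 39 genes held the letters (25.6%), against 8.09% of 27025 genes with a region. These were Eif1b, Eif3a, Eif3f, Eif3k, Eif4a1, Eif4e, Eif4g1, Eif4h, Eif5a and Eif5a2. Eif4e and Eif5a also had regions without the letters. Among the largest rises in WT GC B cells, Eif5a, Eif4h and Eif3k are in this list. Eif2s1, Eif1ax, Eif2a, Eif2s2, Eif3l, Eif3m, Eif3b and Eif2b1, also among the largest rises, had a region without the letters. For Eif3i, Eif3h, Eif3e and Eif3j2, the other genes named among the largest rises, no region was matched by symbol. The letters were thus absent from most of the largest rises that had a region. The ATF4 element TGATGNAA, searched on both strands, was in 1 of 39 (2.56%, Eif2s3x), against 4.51% of all. A start of C and then 4 pyrimidines, as in mRNAs with a terminal oligopyrimidine tract, was found for 2 of 39 (5.13%, Eif2s3x and Eif3f), against 3.01%. A match describes the letters and not a bound site, and a region without the letters says nothing about the factor.

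The 250 bases before the start are shown for the 2 helicases that moved in opposite directions and for 2 eIF3 subunits, all 5′ to 3′ on the strand of the gene, with capitals marking CACGTG. The region of Eif4a1 is chr11:69672424-69672673 on the minus strand, and its match begins 189 bases before the start. That of Eif3k, a subunit at the edge of eIF3, is chr7:28981889-28982138 on the minus strand, with the match at 44 bases. That of Eif3f, an eIF3 subunit that rose by 0.43 ± 0.08 in WT GC B cells, is chr7:108934165-108934414 on the plus strand, with the match at 68 bases. That of Eif4a2 is chr16:23107218-23107467 on the plus strand and holds no match, and its last 24 bases lie within the gene model used for the counts.
Eif4a1: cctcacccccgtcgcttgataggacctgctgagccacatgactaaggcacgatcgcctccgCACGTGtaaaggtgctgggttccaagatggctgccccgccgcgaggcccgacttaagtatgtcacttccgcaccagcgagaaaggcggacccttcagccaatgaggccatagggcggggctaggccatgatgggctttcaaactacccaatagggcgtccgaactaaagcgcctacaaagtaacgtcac
Eif3k: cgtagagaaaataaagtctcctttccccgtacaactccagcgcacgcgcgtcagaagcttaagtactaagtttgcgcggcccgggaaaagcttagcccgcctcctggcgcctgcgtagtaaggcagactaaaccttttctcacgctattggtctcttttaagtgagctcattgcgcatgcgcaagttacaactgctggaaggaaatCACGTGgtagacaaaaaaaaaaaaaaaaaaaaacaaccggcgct
Eif3f: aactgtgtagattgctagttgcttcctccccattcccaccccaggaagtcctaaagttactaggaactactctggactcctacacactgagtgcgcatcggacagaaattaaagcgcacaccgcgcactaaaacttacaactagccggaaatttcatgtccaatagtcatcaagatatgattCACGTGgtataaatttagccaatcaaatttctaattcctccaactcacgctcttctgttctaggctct
Eif4a2: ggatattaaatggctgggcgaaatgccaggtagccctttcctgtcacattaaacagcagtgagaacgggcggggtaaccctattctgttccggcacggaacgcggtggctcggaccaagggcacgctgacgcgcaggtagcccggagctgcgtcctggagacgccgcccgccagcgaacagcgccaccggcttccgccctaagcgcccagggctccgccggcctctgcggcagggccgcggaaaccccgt

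In S1PR4-/- mice the same comparison, which shares no sample with that in WT mice, found 40 of 49 genes higher in GC B cells (81.6%, against 33.6% of 13484 genes) and 2 lower (4.08%, against 31.0%). Past 1.5-fold there were 27 higher and 1 lower, against 25.3% and 22.9% of all genes, and the median log2 fold change was 0.60 against 0.03 over all. Scaling by total counts moved the median of all genes by over 0.1, to -0.08, and left 37 higher and 3 lower, with 20 past 1.5-fold. Without both libraries that stood apart 39 were higher and 1 was lower. All 39 genes called in WT mice were also called in S1PR4-/- mice in the same direction, which is 92.9% of the 42 called there. Over all genes, 85.1% of WT calls were among the S1PR4-/- calls and 87.5% the other way round. The 14 eIF3 genes were again higher, from 0.31 to 0.92, with 13 of them called under total counts.

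Eif2s1 was at 276 to 315 CPM (median 301) in S1PR4-/- GC B cells and at 114, 135, 144 and 145 CPM in non-GC B cells, again without overlap (log2 fold change 1.20 ± 0.09, adjusted p = 4.69e-07). Eif4a2 was at 87.4 to 108 CPM (median 98.0) against 231, 241, 253 and 257 CPM, all GC B samples being the lower (log2 fold change -1.26 ± 0.07, adjusted p = 7.38e-08). Eif1ax had the largest rise in this genotype (log2 fold change 1.38 ± 0.11, adjusted p = 8.80e-07). After Eif2s1 came Eif2a (1.16 ± 0.11), Eif5a (1.11 ± 0.09), Eif2s2 (0.94 ± 0.09), Eif3b (0.92 ± 0.09), Eif4h (0.92 ± 0.07), Eif3l (0.91 ± 0.07) and Eif4g1 (0.90 ± 0.10), the scaffold that ties the cap to the ribosome. Next were Eif3k (0.88 ± 0.10), Eif3i (0.88 ± 0.13), Eif2b1 (0.86 ± 0.08), Eif3h (0.85 ± 0.08), Eif3m (0.83 ± 0.07) and Eif3j2 (0.80 ± 0.07). The highest adjusted p of these 13 genes was 1.03e-04. The 3 genes called in this genotype and not in WT mice were Eif1, lower at -0.18 ± 0.06 (adjusted p = 0.0286), and Eif2s3x and Eif5a2, higher at 0.52 ± 0.20 and 0.55 ± 0.15. The difference between genotypes was not called for any of them (adjusted p = 0.9999 for each in the interaction test). Eif1 was no longer called lower without both libraries that stood apart. The call of Eif2s3x was lost with total counts, with all 8 groups in the same fit, without both libraries that stood apart, and on leaving out any of GC B replicates 2, 3 and 4 or non-GC B replicates 3 and 4, where its log2 fold change lay between 0.38 and 0.53.

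Markers of other cells also differed between the B cell populations. Of 6 plasma cell markers, 5 were higher in WT GC B cells and 4 in S1PR4-/- GC B cells. Their sum was 3988 to 8758 CPM in WT GC B samples, led by Jchain, and 511 to 854 CPM in WT non-GC B samples, led by Xbp1, with Prdm1 at 0 in 1 of the latter. In S1PR4-/- mice the sums were 2036 to 17638 CPM and 561 to 635 CPM. T cell markers were low in both: their sum was 128 to 163 CPM in WT GC B samples, led by Lck and with Cd3e at 0 in 1 sample, and 81.7 to 123 CPM in WT non-GC B samples, and 3 of the 5 tested were higher in GC B cells. Of 6 myeloid markers, 4 were higher in WT GC B cells, with sums of 509 to 1129 CPM against 653 to 904 CPM, led by Cybb in both. Cybb alone was at 465 to 912 CPM in WT GC B and 631 to 852 CPM in WT non-GC B samples. It was at 1.83 to 5.42 CPM in WT non-TFH samples. These sums in B cells therefore follow Cybb and not the list as a whole. Of the 8 B cell markers, 7 were lower in GC B cells of both genotypes. The part of plasma cells, of other cells and of proliferation in the higher initiation factor levels was not tested.

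In WT mice the median difference of TFH from non-TFH cells was smaller than that between the B cell populations, and calls went in both directions. Of the 48 genes that passed the filter on low counts, which Eif2s3y did not, 28 were higher (58.3%, against 34.8% of 13481 genes) and 6 were lower (12.5%, against 33.9%). Past 1.5-fold, 4 were higher and 3 lower, against 22.8% and 20.4% of all genes. The median log2 fold change was 0.23, against 0.00 over all genes. With total counts 23 were higher and 11 lower. Of the 14 eIF3 genes, 9 were higher and Eif3g was lower, with log2 fold changes from -0.29 to 0.56, and 9 were higher and 2 lower with total counts. All 3 tested eIF2 genes, 3 of 5 of eIF2B, 2 of 3 of eIF4G and 1 of the 2 alternative carriers of initiator tRNA were higher with none lower. With total counts these became 1 of eIF2, 1 of eIF2B, 1 of eIF4G with 1 lower, and 1 carrier with 1 lower. The helicase group had 2 higher and 1 lower (2 and 2 with total counts), eIF1 and eIF1A 2 and 1, eIF4E 2 and 1, and the eIF5 group 2 and 2. Of the eIF4E-binding proteins 2 were higher and none lower, or 1 lower with total counts.

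Eif4a2 fell here too. It was at 66.5 to 83.5 CPM (median 70.7) in WT TFH cells and at 169.7 to 222 CPM (median 212) in WT non-TFH cells, which did not overlap (log2 fold change -1.49 ± 0.08, adjusted p = 8.22e-10). For Eif4a1 the levels overlapped, at 550.4 to 694 CPM (median 629) and 611 to 848 CPM (median 682) (log2 fold change -0.17 ± 0.08, adjusted p = 0.0711). It was called lower with total counts (-0.22), and without TFH replicate 1 or non-TFH replicate 3 (-0.21 in both cases). Eif5, which makes eIF2 hydrolyse its GTP (ENSMUSG00000021282.17, chr12:111538016-111546752), was at 326 to 389 CPM (median 374) against 629 to 739.9 CPM (median 639.7). All TFH samples lay below all non-TFH samples (log2 fold change -0.86 ± 0.06, adjusted p = 1.55e-08). Eif1 (ENSMUSG00000035530.13, chr11:100319885-100322096) was at 337 to 455 CPM (median 349) against 449 to 656 CPM (median 557). TFH replicate 1, the highest of its group, lay above 1 non-TFH sample, and the gene was lower in TFH cells (log2 fold change -0.59 ± 0.09, adjusted p = 4.12e-05). For its relative Eif1b the log2 fold change was 0.06 ± 0.09. Eif4e3, a cap-binding relative of eIF4E, was also lower, just short of 1.5-fold (log2 fold change -0.58 ± 0.09, adjusted p = 5.27e-05).

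The genes that rose past 1.5-fold in WT TFH cells were a pair that binds eIF4E, a scanning factor and the second copy of eIF5A. Eif4ebp1, the repressor that mTORC1 inactivates (ENSMUSG00000031490.6, chr8:27260329-27276674), was at 12.1 to 17.8 CPM (median 13.2) in TFH cells and at 6.52 to 9.78 CPM (median 7.71) in non-TFH cells. The groups did not overlap (log2 fold change 0.81 ± 0.13, adjusted p = 7.08e-05). For its relative Eif4ebp2 the log2 fold change was -0.17 ± 0.09, which was called with total counts (-0.22) and without TFH replicate 1 (-0.24). Eif4enif1, the eIF4E transporter, was at 73.7 to 96.7 CPM (median 89.9) against 46.3 to 57.2 CPM (median 51.8), and all TFH samples were the higher (log2 fold change 0.77 ± 0.07, adjusted p = 3.03e-07). Eif1ax was at 97.6 to 127 CPM (median 113) against 65.8 to 78.3 CPM (median 73.4), also without overlap (log2 fold change 0.63 ± 0.07, adjusted p = 2.71e-06). Eif5a2 rose by 0.65 ± 0.15 (adjusted p = 0.00155) and Eif5a by 0.50 ± 0.10. Eif2s3x was called at 0.25 ± 0.11 (adjusted p = 0.0448). That call was lost with total counts, with all 8 groups in the same fit and in 10 of the 12 fits that left out a single library, all but those without TFH replicate 3 and non-TFH replicate 5, with values from 0.20 to 0.27.

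In S1PR4-/- mice 28 of 49 genes were higher in TFH than in non-TFH cells (57.1%, against 36.1% of 13390 genes) and 7 were lower (14.3%, against 34.6%). Past 1.5-fold there were 6 higher and 3 lower, against 22.3% and 21.1%, and the median was 0.22 against 0.01 over all genes. Of the WT calls, 30 were shared in direction, 88.2% of those in WT and 85.7% of those in S1PR4-/- mice, against 87.4% and 85.5% over all genes. Of the eIF3 genes 9 were higher and 1 was lower (8 and 1 with total counts). Eif4a2 was at 56.6 to 72.9 CPM (median 67.6) against 141 to 204 CPM (median 183), without overlap (log2 fold change -1.43 ± 0.09, adjusted p = 6.13e-09). Eif5 was at 357 to 427 CPM (median 385) against 545 to 689.5 CPM (median 583), also without overlap (log2 fold change -0.62 ± 0.07, adjusted p = 1.07e-06), and Eif1 fell too (log2 fold change -0.64 ± 0.07, adjusted p = 1.68e-06). Those past 1.5-fold upward were Eif4ebp1 (0.83 ± 0.13), Eif1ax (0.76 ± 0.06), the cap-binding protein Eif4e (0.71 ± 0.08), Eif5a2 (0.69 ± 0.18), Eif4enif1 (0.67 ± 0.06) and Eif3l (0.61 ± 0.06), with adjusted p-values of at most 0.00278. Eif4a1 was not called (log2 fold change -0.18 ± 0.09, adjusted p = 0.102), but was with total counts (-0.25) and without TFH replicate 4 (-0.26).

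TFH samples also carried more B cell marker RNA than non-TFH samples. All 8 B cell markers were higher in WT TFH cells (median log2 fold change 3.04) and 6 of 7 tested were in S1PR4-/- TFH cells. Their sum was 141 to 406 CPM in WT and 147 to 269 CPM in S1PR4-/- TFH samples, against 11.0 to 44.7 CPM and 8.83 to 20.2 CPM in non-TFH samples, and 12539 to 13207 CPM in WT non-GC B samples. Cd22 was the most abundant of them in all 12 TFH samples, at 104 to 223 CPM in WT and 136 to 260.2 CPM in S1PR4-/- mice. All 6 plasma cell markers were higher in TFH cells of both genotypes, with sums of 282 to 648 CPM in WT TFH against 117 to 164 CPM in WT non-TFH samples, led by Xbp1 in both. Of 6 myeloid markers, 4 were higher, with sums of 65.8 to 129 CPM against 15.7 to 50.4 CPM, led by Lyz2 or Cybb in TFH cells. In S1PR4-/- mice these sums were 50.8 to 508 CPM against 12.5 to 38.6 CPM, and the highest was that of TFH replicate 6, with Lyz2 at 342 CPM. Of 8 T cell markers 4 were higher and 1 lower in WT TFH cells. What part these cells have in the differences between TFH and non-TFH cells was not tested.

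The step from non-GC B to GC B cells was then set against the step from non-TFH to TFH cells in WT mice, by testing the difference between the 2 log2 fold changes in a single fit of the 4 groups. The B cell step was the more positive for 30 of 49 genes (61.2%, against 20.3% of 15101 genes) and the T cell step for 2 (4.08%, against 21.4%). Past 1.5-fold there were 12 and 1, against 12.9% and 16.1%. The median difference was 0.32, against -0.03 over all genes. In the same test 7 of 8 proliferation genes had the more positive step in B cells (median 1.48), and all 8 B cell markers had it in T cells (median -3.77). Their part in the differences was not tested. For the eIF3 genes, 12 of 14 had the more positive step in B cells, also with total counts, and no member had it in T cells. By complex, counts were 2 of 2 for the alternative carriers, 2 of 5 for eIF1 and eIF1A, 2 of 4 for eIF2, 2 of 5 for eIF2B, 3 of 5 for the helicase group, 1 of 3 for eIF4E and 4 of 5 for the eIF5 group, with the same counts under total counts, and 1 each way for eIF4G and for the eIF4E-binding proteins.

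Eif2s1 had the largest difference, 0.96 ± 0.10 (adjusted p = 1.12e-07), where the separate fits of each lineage gave a rise of 1.25 in B cells and of 0.22 in T cells. Eif5 followed at 0.92 ± 0.08 (adjusted p = 8.59e-09): it fell in TFH cells, whereas in GC B cells, at 565 to 636 CPM (median 603), it overlapped with non-GC B cells, at 532, 571, 578, 593 and 596 CPM (log2 fold change 0.13 ± 0.06). Eif3m, an eIF3 subunit, differed by 0.84 ± 0.07 (adjusted p = 4.27e-09). It was at 202 to 244 CPM (median 218) in GC B cells and 118, 119.8, 129, 131 and 135 CPM in non-GC B cells, but at 169 to 186 CPM (median 178) in TFH and 175 to 196 CPM (median 182) in non-TFH cells, which overlapped. Differences of the same sign were those of Eif2a (0.75 ± 0.13), Eif3j1 (0.71 ± 0.11), Eif2s2 (0.71 ± 0.10), Eif2d (0.68 ± 0.09), which also brings tRNA to the ribosome, Eif3j2 (0.67 ± 0.11) and Eif3e (0.65 ± 0.07), with adjusted p-values of at most 8.36e-05. Eif4ebp1 had the opposite sign at -0.69 ± 0.16 (adjusted p = 0.00117): it rose in TFH cells, and in B cells it was at 23.0 to 26.7 CPM (median 26.0) against 21.5, 21.7, 23.3, 24.6 and 26.1 CPM, which overlapped. Eif4g3, a scaffold of the eIF4G family, was the other gene with the more positive T cell step (log2 fold change -0.41 ± 0.14, adjusted p = 0.0200). For Eif4a2, which fell in both, the difference was 0.21 ± 0.11 (adjusted p = 0.127), and for Eif4a1 it was 0.56 ± 0.12 (adjusted p = 4.69e-04). The plot of B cell against T cell changes shows Eif4a2 apart from the rest at the lower left.

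**Figure D4:**
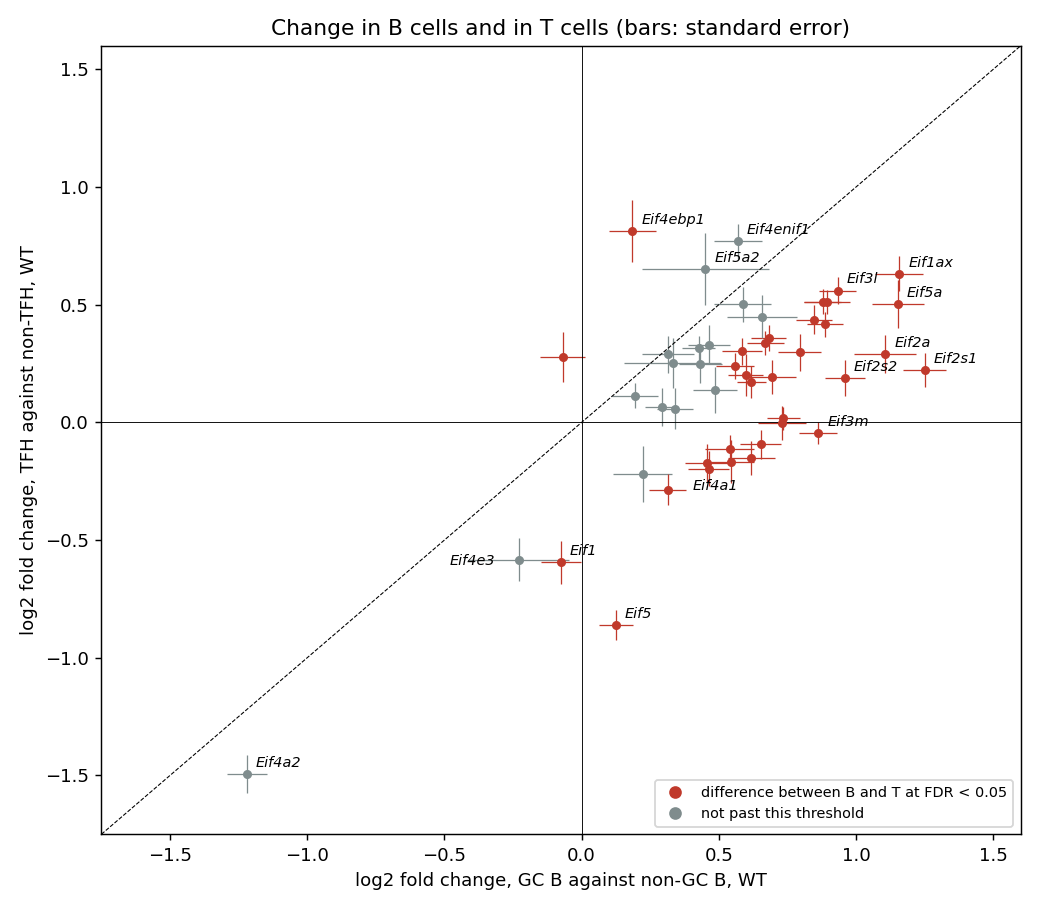
Log2 fold change in WT mice of GC B against non-GC B cells (horizontal) and of TFH against non-TFH cells (vertical) for each initiation factor gene, with SE bars; red, adjusted p under 0.05 for the difference between the 2. Most points lie right of 0 and below the diagonal, Eif5 and Eif1 lie below most others on the vertical axis, and Eif4a2 is at -1.22 and -1.49.

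Between lineages, non-GC B cells were set against non-TFH cells of WT mice. Scaling mattered here: with total counts the median log2 fold change of all genes moved from -0.00 to -0.14. With the main scaling 10 of 48 genes were higher in non-GC B cells (20.8%, against 28.1% of 13669 genes) and 17 were lower (35.4%, against 29.2%), and with total counts 4 were higher and 30 lower. Past 1.5-fold 2 were higher and 3 lower, against 19.7% and 19.1%, or 9 in both directions with total counts. The median was -0.10 over the 48 genes. The largest difference was in Eif4ebp1, at 21.5, 21.7, 23.3, 24.6 and 26.1 CPM in non-GC B cells, all above the non-TFH samples given above, and 3.01 times as high (log2 fold change 1.59 ± 0.12, adjusted p = 8.97e-08). Eif4enif1 was higher too (log2 fold change 0.87 ± 0.07, adjusted p = 2.28e-07). Lower in non-GC B cells were Eif4e3 (log2 fold change -0.82 ± 0.12, adjusted p = 5.80e-05), Eif4ebp2 (log2 fold change -0.78 ± 0.09, adjusted p = 3.08e-06) and Eif4a1 (log2 fold change -0.59 ± 0.09, adjusted p = 5.46e-05). Eif4a2 was higher by 0.33 ± 0.08, a call that was lost with total counts (0.19). All 3 cap-binding genes were lower, but for Eif4e (-0.25 ± 0.09) the call was lost with Ddx3y as a covariate and in 6 fits without a single library, non-TFH replicates 4 and 6 and non-GC B replicates 1, 2, 3 and 5, at values from -0.26 to -0.22. Of the eIF3 genes 7 were lower and 1, Eif3a, was higher, or 10 and 0 with total counts, led by Eif3e (log2 fold change -0.54 ± 0.06, adjusted p = 2.57e-06). The eIF1 and eIF1A group, with 2 higher and none lower, turned to 1 and 2 with total counts, and the eIF5 group from 2 and none to none and 3. With the main scaling 1 gene of eIF2 and 2 of eIF2B were lower, and more genes of these groups were lower with total counts. Counts were 1 each way for eIF4G (none higher and 1 lower with total counts) and 1 each way for the alternative carriers. The helicase group had 1 each way, or 3 lower with total counts. Of 6 plasma cell markers 5 were higher and 1 lower in non-GC B cells, and 7 of 8 proliferation genes were lower (median log2 fold change -1.43). The part of these genes in the differences was not tested.

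GC B cells set against TFH cells had 27 of 48 genes higher (56.2%, against 32.3% of 13719 genes) and 3 lower (6.25%, against 35.4%), or 24 and 7 with total counts. Past 1.5-fold 4 were higher and 1 lower, against 20.1% and 24.2%. The median was 0.22, against -0.01 over all genes. Eif2a led, at 58.6 to 84.7 CPM (median 76.1) in GC B and 29.5 to 38.3 CPM (median 34.5) in TFH cells, without overlap (log2 fold change 1.12 ± 0.09, adjusted p = 1.30e-07). Eif4ebp1 (log2 fold change 0.84 ± 0.10, adjusted p = 6.39e-06), Eif5b, which joins the ribosomal subunits (log2 fold change 0.83 ± 0.07, adjusted p = 1.61e-07), and Eif5 (log2 fold change 0.71 ± 0.06, adjusted p = 8.75e-08) were higher past 1.5-fold, and Eif4e3 was lower (log2 fold change -0.59 ± 0.15, adjusted p = 0.00395). Of the eIF3 genes 9 were higher and none lower, or 8 and 1 with total counts. Of the cap-binding genes Eif4e and Eif4e3 were lower, and with total counts all 3 were, Eif4e2 at -0.16. The single eIF2B gene called higher, Eif2b5, was not called with total counts, where 1 other gene of eIF2B was lower. For Eif4ebp2 the log2 fold change was -0.18 ± 0.09, called with total counts (-0.24), with all 8 groups in the same fit (-0.19) and without TFH replicate 6 (-0.24). Eif2s3x was called higher with Ddx3y as a covariate (0.18). Counts of the other groups were 4 of 5 higher for eIF1 and eIF1A, 2 of 3 for eIF2 and 3 of 5 for the helicase group. They were 3 of 5 for the eIF5 group, 2 of 2 for the alternative carriers and 2 of 3 for the eIF4E-binding proteins. For eIF4G the count was 1 each way. Of 6 plasma cell markers 5 were higher in GC B cells (median log2 fold change 2.98), as were 4 of 8 proliferation genes (0.25). The part of these markers in the differences was not tested.

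Loss of S1PR4 was examined within each population. By edgeR's test without a covariate no initiation factor was called in any of the 4, at any fold. In GC B cells 0 of 49 were called (against 0.0612% of 13070 genes, 8 in number), also without replicate 3, the library that stood apart. Before adjustment 1 had a p under 0.05 (540 of all genes), and DESeq2 also called 0. Eif1 was at 429 to 552 CPM (median 510.4) in WT and at 445 to 500.4 CPM (median 462) in S1PR4-/- GC B cells, which overlapped (log2 fold change -0.11 ± 0.07, adjusted p = 0.985). The 3 genes with the lowest p-values were Eif2b5, the catalytic subunit of eIF2B (0.13 ± 0.06), Eif4enif1 (0.15 ± 0.08) and Eif1, each at an adjusted p of 0.985. The median log2 fold change was 0.03, against 0.01 over all genes, with 30 values above 0 and 19 below.

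In non-GC B cells 0 of 49 were called (against 0.0537% of 13038 genes, 7 in number), also without replicate 1, the library that stood apart. Before adjustment 0 had a p under 0.05 (593 of all genes), and DESeq2 called 0. The lowest p-values were those of Eif3j2 (log2 fold change -0.17 ± 0.08, adjusted p = 0.981), Eif3d, an eIF3 subunit that can itself bind caps (-0.13 ± 0.08), and Eif1ax (-0.16 ± 0.09). For Eif1 the values were 522, 534, 538, 568 and 597 CPM in WT and 523, 549, 559 and 564 CPM in S1PR4-/- samples (log2 fold change -0.00 ± 0.06), and the groups overlapped. In non-TFH cells 0 of 48 were called (against 0.235% of 13197 genes, 31 in number, or 18 to 51 on leaving out a single library) and 5 had an unadjusted p under 0.05, as did 1486 of all genes. Those lowest in p were Eif1a, at 53.7 to 72.3 CPM (median 63.0) in WT and 69.0 to 93.9 CPM (median 76.5) in S1PR4-/- cells, with overlap (log2 fold change 0.31 ± 0.09, adjusted p = 0.171), Eif3d (log2 fold change 0.18 ± 0.05, adjusted p = 0.180) and Eif3c, a core eIF3 subunit (log2 fold change 0.16 ± 0.05, adjusted p = 0.281). DESeq2 called 2 of these, Eif3d (0.18) and Eif1a (0.31). For Eif1 the log2 fold change was -0.04 ± 0.09.

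TFH cells had the most values under 0.05 before adjustment, 14 of 48 genes and 2586 of all 13495 genes, but again 0 of 48 were called by edgeR (against 1.41% of 13495 genes, 190 in number). The count over all genes depended on the test, with 996 by DESeq2, 704 with Ddx3y as a covariate and 11 with a score of the B cell markers as a covariate, and on the libraries, with 21 to 369 on leaving out a single one. Eif3k was at 137 to 159 CPM (median 138) in WT and at 121 to 132 CPM (median 128) in S1PR4-/- TFH cells, and all S1PR4-/- samples lay below all WT samples (log2 fold change -0.17 ± 0.05, adjusted p = 0.0876). Eif3h, which helps ribosomes resume scanning, was at 223 to 237 CPM (median 231) against 193 to 226 CPM (median 208), with overlap (log2 fold change -0.15 ± 0.05, adjusted p = 0.101). Eif2b5 was at 131 to 152 CPM (median 135) against 144 to 166 CPM (median 155), also with overlap (log2 fold change 0.16 ± 0.05, adjusted p = 0.114), and for Eif1 the log2 fold change was -0.11 ± 0.07 (adjusted p = 0.456). DESeq2 called these first 3, Eif3k at -0.16, Eif3h at -0.14 and Eif2b5 at 0.17, and edgeR with Ddx3y as a covariate called 2, Eif2b5 at 0.21 and Eif1ad, which is related to eIF1A, at 0.22. The median was 0.07, against -0.00 over all genes, with 36 values above 0 and 12 below. Of the 8 B cell markers none was called between the genotypes in TFH cells (median log2 fold change -2.29), while 2 of 6 plasma cell markers and 2 of 5 markers of resting T cells were lower in S1PR4-/- samples. With the B cell markers as a covariate 0 genes of the 48 were called. The uneven number of samples with Ddx3y, 1 in WT and 4 in S1PR4-/- TFH cells, also lies along the comparison, and its part in these values beyond the covariate was not tested.

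**Figure D5:**
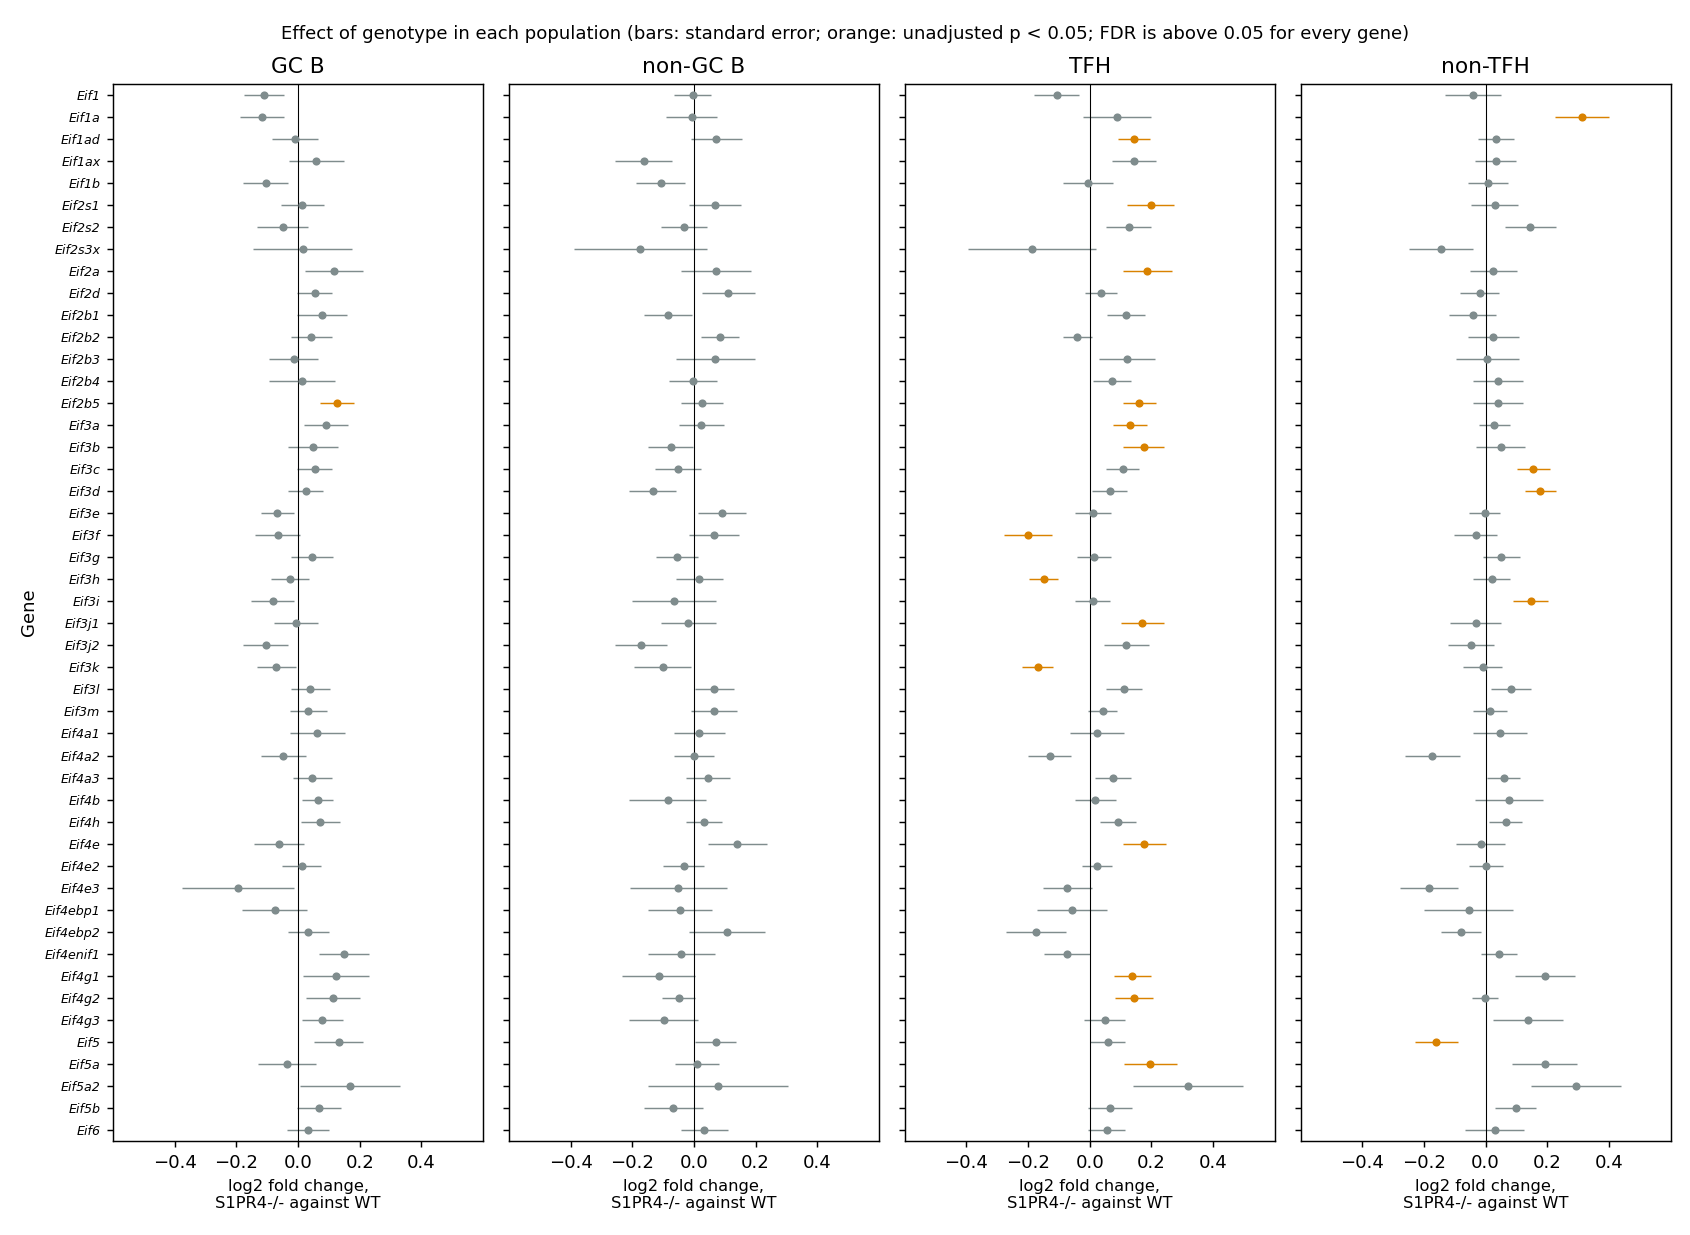
Log2 fold change of S1PR4-/- against WT for each initiation factor gene within GC B, non-GC B, TFH and non-TFH cells, with SE bars; orange, unadjusted p under 0.05. By edgeR without a covariate no gene has an adjusted p under 0.05, and orange points number 1, 0, 14 and 5.

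Whether genotype changed the step between populations was tested by its interaction with population. In B cells 0 of 49 genes were called (against 0% of 14490 genes), 0 had an unadjusted p under 0.05 (664 of all genes), and DESeq2 called 0 of the 49, as did edgeR without both libraries that stood apart. The lowest p-values were those of Eif3d (0.16 ± 0.09), Eif3e (-0.15 ± 0.09) and Eif1ax (0.23 ± 0.14), each at an adjusted p of 0.9999. In T cells 0 of 49 were called (against 0.0139% of 14401 genes, 2 in number, or 0 to 6 on leaving out a single library), 3 had an unadjusted p under 0.05 (1325 of all genes), and DESeq2 called 0. Those 3 were Eif5 (log2 fold change 0.22 ± 0.09, adjusted p = 0.477), Eif3h (log2 fold change -0.17 ± 0.07, adjusted p = 0.479) and Eif3k (log2 fold change -0.16 ± 0.08, adjusted p = 0.542). A p-value above the threshold does not show that the genotypes were equal.

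Other genes of the pathway were read from 5 lists, whose counts stand beside shares over all genes of 34.3% higher and 32.9% lower for WT GC B cells and of 34.8% and 33.9% for WT TFH cells. Of 14 genes of the eIF2 kinases and the integrated stress response, 9 were higher and 3 lower in WT GC B cells, among them asparagine synthetase Asns (4.96), the glutathione-degrading Chac1 (3.71) and the transcription factor Atf4 (0.35), and, lower, Ddit3 (-1.12) and the eIF2 phosphatase subunit Ppp1r15a (-1.14). In WT TFH cells 6 of 13 tested were higher and 4 lower, with Asns at 3.72 and Ppp1r15a at -1.41. Values in parentheses are log2 fold changes of called genes. Of 14 genes that link mTORC1 and the MNK kinases to eIF4, 2 were higher and 5 lower in WT GC B cells, with the S6 kinase Rps6kb1 up (0.97) and the eIF4A inhibitor Pdcd4 down (-1.40). In WT TFH cells none was higher and 5 were lower, Pdcd4 again among them (-0.75). Of 12 genes for poly(A) binding and other initiation proteins, 7 were higher and 1 lower in GC B cells, led by the poly(A)-binding protein Pabpc4 (1.34), and 4 and 3 in TFH cells.

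Elongation and termination factors followed the initiation factors in B cells, with 8 of 9 tested higher, such as the release factor Etf1 (1.11), and only Eef2k lower, the kinase that halts elongation factor eEF2 (-1.55). In TFH cells 3 of 9 were higher and 4 lower, with Eef2k at -0.97. Of 8 genes of polyamine metabolism and of the hypusine of eIF5A, which is made from spermidine, 6 were higher and 1 was lower in GC B cells. Ornithine decarboxylase Odc1 (1.68), spermidine synthase Srm (1.25) and the hypusine hydroxylase Dohh (0.43) were up and the deoxyhypusine synthase Dhps (-0.39) was down. In TFH cells 2 of 8 were higher and 1 lower, with Odc1 at 2.55. In S1PR4-/- mice counts of higher and lower genes in GC B cells were 6 and 3, 2 and 1, 8 and 1, 7 and 1, and 6 and 1 for the 5 lists in the order above, and in TFH cells 6 and 5, 2 and 7, 4 and 1, 4 and 3, and 2 and 1. Shares over all genes there were 33.6% and 31.0% in GC B and 36.1% and 34.6% in TFH cells. Between genotypes, and in both interaction tests, edgeR called 0 genes of any of the 5 lists. In the test of the B cell against the T cell step, 7 of 10 elongation and termination genes had the more positive step in B cells and none in T cells, against 20.3% and 21.4% of all genes. Counts for B and T cells were 2 and 4 of 14 in the stress response list, 2 and 1 of 14 in the mTORC1 and MNK list, 4 and none of 12 in the poly(A) list and 4 and 2 of 8 in the polyamine list. The kinase Eif2ak3 (0.80) and Srm (1.38) had it in B cells, and Odc1 (-0.93) and the kinase Eif2ak2 (-1.30) in T cells.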

How the data were processed

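The deposited values are expected counts per gene for 45 samples. To make them the authors used cutadapt 2.10 for trimming, STAR 2.5.3 for alignment (mm10) and RSEM 1.3.0 for counting, with Picard to mark duplicates. Of the expected counts, 8.83% were not whole and were rounded for tests. 111 symbols occur more than once. The authors name Gencode M30, but gene symbols match GENCODE M21, which was used for positions and lengths. mRNA was captured on oligo-dT beads and made into libraries with a stranded total RNA kit, and the strand setting of the counting is not stated. Genes were tested with edgeR 4.0.16 in R 4.3.3 (limma 3.58.1; quasi-likelihood F test, filterByExpr, TMM, prior count of 2), using only the groups compared and no block. Adjusted p-values are Benjamini-Hochberg over all genes tested, calls are those under 0.05, and a second count asks for a fold of 1.5. SEs were derived from the F statistic. CPM, log2 CPM, fold changes and p-values were computed here from the deposited expected counts. CPM were scaled by TMM over all samples.

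Genes were named by rule. In comparisons of populations and lineages these were called genes past 1.5-fold, at most the 15 largest each way. Between genotypes they were Eif1, called genes and the 3 lowest p-values. In interactions and the test of the B against the T cell step they were called genes, at most 10, and the 3 lowest p-values. Close relatives of a pair were added in some comparisons. As an exception decided after its values were seen, fold changes of Eif2s3y are not given, because it is near 0 in all samples without Ddx3y. Alternatives were DESeq2 1.42.0, its size factors, total counts, no filter on low counts, all 8 groups in the same fit, a Ddx3y covariate, a replicate block, a B cell marker covariate for TFH cells, and each library left out in turn. A fit without both libraries that stood apart was added after seeing the data. The tests were tested on simulated data in which all genes had the same spread, a fixed setting not taken from these data. For WT GC B against non-GC B cells, a true change of 1.5-fold was called for 34 of 57 genes and of 2-fold for 68 of 68. These shares need not hold for the initiation factor genes, whose spread may differ from that setting. Genes and lists were chosen with earlier results of these data known. Genes at a mean under 1 CPM, eIF2 kinases and pseudogene or antisense symbols were left out.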

Additional observations from a re-analysis of the deposited data

Results flagged for a closer look

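A sample far from the rest of its group was found in 11 of 312 sets of values, which are 38 genes and the share of counts on the 49 genes within each of 8 groups, where chance gives about 1 in 20. Eif1b was lowest in non-TFH S1PR4-/- replicate 2, at 44.3 CPM where the others had 48.3 to 50.6 CPM. Eif2s3x was lowest in TFH WT replicate 3, at 83.5 CPM where the others had 116 to 131 CPM. Eif3b was lowest in GC B S1PR4-/- replicate 5, at 522 CPM where the others had 599.6 to 631 CPM. Eif3j2 was lowest in non-GC B WT replicate 3, at 30.8 CPM where the others had 35.6 to 36.2 CPM. Eif3k was lowest in non-GC B WT replicate 4, at 72.4 CPM where the others had 87.1 to 90.8 CPM. Eif4a2 was lowest in non-TFH S1PR4-/- replicate 1, at 141 CPM where the others had 181 to 204 CPM. Eif4e was highest in non-GC B WT replicate 4, at 171 CPM where the others had 126 to 138 CPM. Eif4ebp1 was highest in GC B S1PR4-/- replicate 3, at 31.5 CPM where the others had 20.1 to 23.7 CPM. Eif4h was highest in non-TFH S1PR4-/- replicate 1, at 338 CPM where the others had 278 to 299 CPM. Eif5a was highest in non-TFH S1PR4-/- replicate 1, at 1077 CPM where the others had 795 to 829 CPM. Eif5a was highest in non-GC B WT replicate 4, at 676 CPM where the others had 586 to 599 CPM. TFH WT replicate 3 is the single sample of its group with Ddx3y. Of these values 3 come from non-TFH S1PR4-/- replicate 1, which also held the most TFH marker and proliferation gene RNA of its group, and 3 from non-GC B WT replicate 4. The cause was not tested for any of them.

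A difference between groups was found by edgeR in the test of the B cell against the T cell step in WT mice. The genes, with the difference in log2 fold change, were Eif2s1 (0.96, adjusted p = 1.12e-07), Eif5 (0.92, adjusted p = 8.59e-09), Eif3m (0.84, adjusted p = 4.27e-09), Eif2a (0.75, adjusted p = 8.36e-05) and Eif3j1 (0.71, adjusted p = 1.02e-05). Smaller differences were those of Eif2s2 (0.71, adjusted p = 8.30e-06), Eif4ebp1 (-0.69, adjusted p = 0.00117), Eif2d (0.68, adjusted p = 1.27e-06), Eif3j2 (0.67, adjusted p = 2.11e-05) and Eif3e (0.65, adjusted p = 1.17e-07). Lineage and sort day cannot be told apart.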

How the results depend on the processing

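Of 544 alternative counts of initiation factors 540 were within 1.5 times the main count, as were 225 of 272 counts over all genes; 2657 of 2770 values of named genes kept their direction and side of the threshold, and 19 levels moved by more than their SD. Between genotypes and in the interactions edgeR called 0 in every fit without a single library. DESeq2 called 3 genes between genotypes in TFH and 2 in non-TFH cells, and the Ddx3y covariate 2 in TFH cells, where the main count was 0. In non-GC B against non-TFH cells 9 genes were past 1.5-fold with total counts and 5 with TMM. Signs that turned, none of a called gene, were these. With total counts: Eif4g3 -0.00744 in GC B against non-GC B cells and Eif1b -0.0152 in TFH against non-TFH cells, both S1PR4-/-; Eif2s3x -0.0237 between genotypes in GC B, -0.0927 in non-GC B against non-TFH and -0.0579 in GC B against TFH cells. With all 8 groups in the same fit Eif2s3x was -0.0187 and -0.00305 in the last 2, and without the filter on low counts -0.00664 in the last. Between genotypes, the Ddx3y covariate gave Eif2s3x 0.175 and Eif1b 0.0952 in TFH, and Eif1 0.0550 and Eif2s3x 0.0215 in non-TFH cells. Eif1b in TFH cells was 0.00251 with all 8 groups, 0.0274 with the B cell marker covariate and 0.00185 with a replicate block, which gave Eif1 0.00862 in non-GC B cells. Leaving out a library at a time gave, between genotypes, Eif2s3x -0.0644 to 0.0904 in GC B; Eif1 -0.0242 to 0.0208, Eif3j1 -0.0688 to 0.0314 and Eif1a -0.0521 to 0.0339 in non-GC B; Eif1b -0.0586 to 0.0436 in TFH; and Eif1 -0.0929 to 0.0119 and Eif1b -0.0220 to 0.0451 in non-TFH cells. Eif2s3x was -0.195 to 0.0471 in the T cell interaction, -0.118 to 0.0996 for the B against the T cell step, -0.0504 to 0.169 for non-GC B against non-TFH and -0.0828 to 0.0705 for GC B against TFH cells. The cause was not tested. No label says whether replicate numbers pair samples. Of same-number pairs 6 of 21 correlated above 0.1, and 14 of 21 samples correlated best with their own number (T cells, 4 of 6 in WT and 6 of 6 in S1PR4-/-; B cells, 4 of 5 and 0 of 4). Ddx3y was present in both or neither sample in 6 of 6 T cell pairs of each genotype, and in 4 of 5 WT and 1 of 4 S1PR4-/- B cell pairs. So the block is only an alternative. With the replicate block 40 and 38 genes were called in GC B against non-GC B cells (WT, S1PR4-/-) and 38 and 36 in TFH against non-TFH cells, among them Eif4a1 at -0.17 and -0.18. Small changes in genes of low count may have been missed, and the part of depth in this was not tested.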
